A study of Mus musculus with 3 samples.

Results

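Tgfb1, Tgfb2 and Fst encode a pair of TGF-beta ligands and follistatin, an extracellular antagonist, and were followed through single-cell RNA counts of embryonic mouse skin epithelium. The 3 genes were taken as a named set, out of 14656 genes measured in every library, after earlier results of these counts were known. Their differences between placode-like and basal cells, and between Shh and Sox9 cells, are therefore described with no test. The tissue was dorsal skin of wild-type C57BL/6JOlaHsd embryos at E14.5, when the earliest hair placodes form. For each sample the epithelia of 3 to 4 littermates were freed with Dispase II and pooled, dissociated with TrypLE and stained for MAdCAM-1, a surface protein of placode cells. Live cells were sorted either without regard to the stain (total epithelium, 1 library) or as MAdCAM-1-positive cells (placode-enriched, 2 libraries given as biological replicates), and sequenced by 10x Genomics Chromium 3' chemistry, version 2, in which RNA molecules are counted by their molecular barcodes (UMIs). No library carried a mutation or a treatment.

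TGF-beta ligands are secreted in a latent form, held by latent TGF-beta binding proteins and released by proteases or by integrins, and signal through type I and type II serine/threonine kinase receptors to Smad2 and Smad3. Follistatin binds activins, relatives of TGF-beta that use the same Smads through their own receptors, and keeps them from their receptors. In mouse skin, Tgfb2 is known to be needed for normal hair follicle formation, and Fst for normal hair and vibrissa development. Shh marks the placode cells that will lie at the tip of the follicle, and Sox9 marks early stem cell progenitors of the follicle.

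Tgfb1 (ENSMUSG00000002603.15) lies on chromosome 7, 25687002 to 25705077 on the plus strand of GRCm38, and no other annotated gene overlaps it. Tgfb2 (ENSMUSG00000039239.14) lies on chromosome 1, 186622792 to 186705989 on the minus strand, where the snoRNA gene Gm26169 and the antisense gene Gm29491 overlap it on the other strand. Fst (ENSMUSG00000021765.9) lies on chromosome 13, 114452290 to 114458951 on the minus strand, and the antisense gene Gm47040 overlaps it. The strand setting of the counts was not given in the sources used here. Whether any reads of these partners were counted with Tgfb2 and Fst was not tested. The promoters of the ligands are shown because the genes had different patterns across the cell classes below. Each is the 250 bases before the transcription start, 5′ to 3′ along the gene (RefSeq, GRCm38.p6), at chr7:25686752-25687001 for Tgfb1 and chr1:186705990-186706239 on the minus strand for Tgfb2. In Tgfb1, capitals mark GGGCGG, known as the GC box, or its reverse complement. In Tgfb2, the capitals closer to the start are the TATA box letters TATAAA, and those farther from it are an E-box, the palindrome CACGTG.
Tgfb1 promoter: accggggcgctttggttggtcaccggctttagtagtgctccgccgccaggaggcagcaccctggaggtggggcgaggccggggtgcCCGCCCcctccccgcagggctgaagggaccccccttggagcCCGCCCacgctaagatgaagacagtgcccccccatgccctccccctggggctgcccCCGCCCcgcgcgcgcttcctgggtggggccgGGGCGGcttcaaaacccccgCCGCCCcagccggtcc
Tgfb2 promoter: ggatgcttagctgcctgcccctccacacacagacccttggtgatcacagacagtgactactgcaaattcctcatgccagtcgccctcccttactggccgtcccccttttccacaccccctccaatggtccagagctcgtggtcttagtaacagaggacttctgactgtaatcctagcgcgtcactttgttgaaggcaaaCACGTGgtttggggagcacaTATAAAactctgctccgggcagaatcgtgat
The Tgfb1 window was 75.2% G and C and held GGGCGG 5 times over both strands, with the matches starting 164, 123, 67, 36 and 16 bases before the start site, and no TATAAA. The Tgfb2 window was 53.6% G and C and held TATAAA once, 31 bases before the start, the palindrome CACGTG 51 bases before it, and no GGGCGG. Of 32851 promoter windows of this length, 32.7% held GGGCGG, 12.4% TATAAA and 6.02% CACGTG, on either strand. CTTTGAT, a letter string bound by TCF and LEF factors, and GACCACCCA, bound by Gli factors, were not found in these windows on either strand, and are held by 3.21% and 0.225% of all windows. These matches describe letters only.

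The libraries held 1601 (total epithelium), 1511 and 1571 cells (placode-enriched 1 and 2), with medians of 21652 to 23419 UMIs and 4536 to 4641 genes per cell. In each library 2 or 3 cell barcodes also occurred in another library. Cells were clustered without the 3 genes, without pathway and marker genes, and without the genes open to test, and clusters were named from marker levels. Placode-like cells (clusters 3, 10, 11 and 12) made up 5.12% of the total epithelium library and 40.1% and 44.3% of the placode-enriched ones, basal epidermis-like cells 69.2%, 20.9% and 20.8%, and cells of clusters left unnamed 5.62%, 35.3% and 31.0%. Placode-like cells had 73.6 ± 12.3 CPM (UMIs of the gene in 1000000 UMIs of the summed cells, SD, n = 3 libraries) of Shh and 71.7 ± 8.66 of Edar. Basal epidermis-like cells had 1.91 ± 1.10 and 10.0 ± 3.37, and the unnamed clusters 14.9 ± 1.45 and 59.8 ± 9.18. Both genes are among the markers that named the class, so these levels are no separate check of its label. Cluster 3 was led by Hist1h2bc, S100a9 and the placode marker Fgf20, and also by the stress gene Atf3 and the periderm keratin gene Krt18. It met 8 of the 9 placode markers. Another periderm keratin gene, Krt8, was among the 10 leading genes of cluster 12. In the total epithelium library 41 of the 81 placode-like cells belonged to cluster 10, and in the placode-enriched libraries 184 of 604 and 252 of 695 belonged to cluster 12, the largest share in each.

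Tgfb2 was the member most restricted to placode-like cells. Placode-like cells held 30.3 CPM of it in total epithelium (95% Poisson interval 22.6 to 39.7) and 64.4 (60.2 to 68.9) and 69.7 CPM (65.6 to 73.9) in placode-enriched 1 and 2. In basal epidermis-like cells it was at 0.561, 2.38 and 0.962 CPM, and a Tgfb2 UMI was seen in 1.19%, 6.05% and 2.76% of these cells at median depths of 21823, 27820.5 and 27910.5 UMIs. All 3 placode-like values lay above all 3 basal values, and the total epithelium library was the lowest of the placode-like ones. In edgeR's fit over the 3 libraries the log2 difference was 5.46 ± 0.17 (SE). The placode-like class held 52.5%, 79.0% and 81.7% of all Tgfb2 UMIs while holding 4.74%, 37.8% and 40.9% of all UMIs. Intervals here and below cover counting error only.

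Tgfb1 was higher in placode-like than in basal epidermis-like cells but was as high in the unnamed clusters. In placode-like cells it stood at 47.8, 51.6 and 52.0 CPM (total epithelium, placode-enriched 1 and 2) and in basal epidermis-like cells at 14.7, 13.8 and 13.7 CPM, a log2 difference of 1.87 ± 0.08. The libraries differed little within either class, and the classes did not overlap. The unnamed clusters held 73.0, 56.0 and 57.6 CPM (mean 62.2 ± 9.39 SD, n = 3) against a placode-like mean of 50.5 ± 2.35. The unnamed cells of the total epithelium library, the highest, also held fibroblast transcripts (Col1a1 53.2, Col3a1 45.2 and Lum 60.0 CPM, against 0.268, 1.25 and 2.50 in placode-enriched 1), whose part was not tested. The suprabasal-like cells held 2.41, 5.24 and 7.10 CPM of Tgfb1. From high to low the order of the means was unnamed, placode-like, basal epidermis-like and suprabasal-like. When the unnamed clusters were counted as basal, the log2 difference of Tgfb1 fell to 0.60 ± 0.12, that of Tgfb2 to 2.89 ± 0.18 and that of Fst was -0.89 ± 0.09.

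Fst had the opposite pattern and was highest in basal epidermis-like cells. There it stood at 135, 98.6 and 115 CPM, against 51.9, 45.1 and 38.7 CPM in placode-like cells, a log2 difference of -1.35 ± 0.08. The lowest basal value was above the highest placode-like one. The unnamed clusters (40.2, 50.7 and 42.2 CPM) did not differ from placode-like cells beyond the spread of the libraries, and suprabasal-like cells were at 15.1, 34.1 and 40.1 CPM. In the total epithelium library basal epidermis-like cells held 92.6% of the Fst UMIs with 68.9% of all UMIs. Within the basal class, cluster 5, of which 643 of 680 cells came from the total epithelium library, had the highest pooled level, at 164 CPM (157 to 171).

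**Figure D1:**
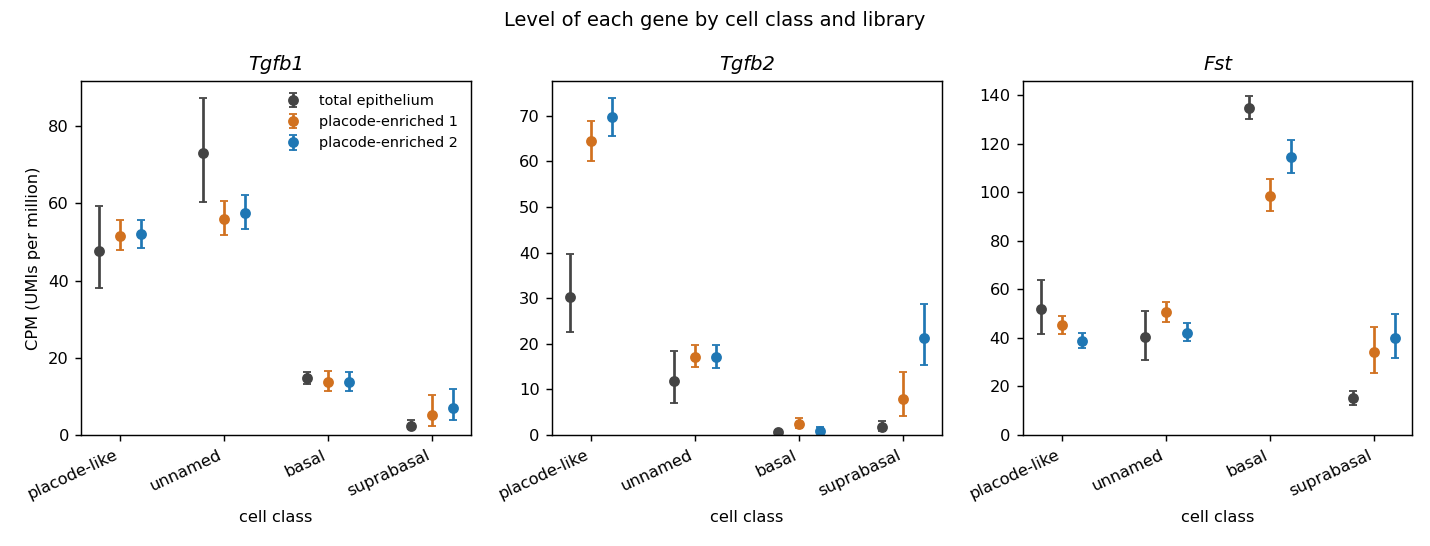
Level of Tgfb1, Tgfb2 and Fst in CPM (y axis) by cell class (x axis), with a point per library and bars for the 95% Poisson interval of the summed count. Tgfb2 is highest in placode-like cells, Tgfb1 is high in placode-like and unnamed cells, and Fst is highest in basal epidermis-like cells.

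In suprabasal-like cells, Tgfb2 ranged widely over the libraries. Its level was 1.74 CPM in the 298 such cells of total epithelium, 7.86 CPM in 54 cells of placode-enriched 1 and 21.3 CPM in 61 cells of placode-enriched 2. The cells of the latter libraries had been sorted for MAdCAM-1. In these cells Shh (0.402, 4.58 and 7.61 CPM), Edar (0.937, 3.27 and 7.61 CPM) and Sox9 (14.1, 77.9 and 103 CPM) had the same order. Madcam1 did not, at 0.670, 8.51 and 5.07 CPM. Sox9 was lower in placode-like cells, at a mean of 23.2 ± 9.99 CPM (SD), than in the suprabasal-like cells of the sorted libraries. It was also lower there than in the unnamed clusters, which held 72.0 ± 5.04 CPM. Median depth was 24392.5, 27971 and 32742 UMIs. The parts of the sort, of the cells with these other genes and of depth in the Tgfb2 difference were not tested.

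Inside the placode-like class, Tgfb2 was higher and Fst lower in clusters 11 and 12 than in clusters 3 and 10. Pooled over the libraries, Tgfb2 was at 22.4 CPM in cluster 10, 29.8 in cluster 3, 76.8 in cluster 11 and 123 in cluster 12. Fst was at 95.7 CPM in cluster 3, 53.9 in cluster 10, 27.3 in cluster 11 and 15.8 in cluster 12. Tgfb1 ranged only from 36.2 CPM in cluster 3 to 57.0 in cluster 12. Cluster 10 was led by Sprr2a3, a cornified envelope gene, and Dkk4, a Wnt antagonist of early placodes. Tgfb2 itself was among the 10 leading genes of clusters 11 and 12, as was Shh, which led cluster 12. Each library with enough cells kept the contrast between these clusters: Tgfb2 stood at 7.50, 22.2 and 26.1 CPM in cluster 10 and at 182, 126 and 117 CPM in cluster 12, the total epithelium value of the latter resting on 14 cells. Fst stood at 50.6, 60.5 and 48.9 CPM in cluster 10 and at 20.8, 17.6 and 14.4 CPM in cluster 12. The library with the lowest Tgfb2 over all placode-like cells was also the one in which cluster 10 was the largest of the 4, and the part of this mix was not tested.

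Co-detection in single placode-like cells showed Tgfb2 with Shh and Fst away from it. Tgfb2 was seen in 40.0%, 68.9% and 69.8% of cells with a Shh UMI (30, 325 and 391 cells) and in 13.7%, 31.5% and 35.2% of cells without (51, 279 and 304 cells). The odds ratios were 4.19, 4.81 and 4.26 in total epithelium and placode-enriched 1 and 2. Fst was seen in 26.7%, 23.7% and 20.2% of cells with a Shh UMI and in 56.9%, 48.4% and 44.4% of cells without, with odds ratios of 0.276, 0.331 and 0.317. In all 3 libraries the share of cells with Tgfb2 was higher, and that with Fst lower, where Shh was seen. Median depth was lower in the Shh cells (17063.5, 19858 and 20842 UMIs) than in the others (22059, 21077 and 22959). For Tgfb1 the odds ratios with Shh were 0.594, 1.29 and 1.35, below 1 in the total epithelium library and above 1 in the others. With every cell thinned to 5000 UMIs, Tgfb2 was still seen more often with Shh than without (50% and 1.54%, 44.3% and 19.2%, 44.9% and 21.1%) and Fst less often (6.25% and 21.5%, 4.92% and 19.5%, 4.35% and 14.55%).

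With Sox9 the odds ratios of Tgfb2 and Fst lay nearer to 1 than with Shh in each library. Tgfb2 was seen in 13.3%, 45.5% and 52.2% of placode-like cells with a Sox9 UMI and in 25.8%, 54.5% and 55.9% of those without, with odds ratios of 0.443, 0.698 and 0.863. Fst was seen in 53.3%, 38.6% and 37.6% against 43.9%, 33.5% and 27.5% (odds ratios 1.46, 1.25 and 1.59), and the odds ratios of Tgfb1 were 0.791, 1.09 and 1.45. The total epithelium library had only 15 cells with a Sox9 UMI. A Sox9 UMI was seen in 18.5%, 31.3% and 32.5% of placode-like cells. In the unnamed clusters, which are outside these counts, it was seen in 60.7%, 64.5% and 62.2% of cells. Median depth was higher in the Sox9 cells (25033, 22323 and 23820.5 UMIs) than in the others (20491, 19358 and 20570).

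Cells were then parted by both genes. Tgfb2 stood at 77.6, 111 and 110 CPM in cells with Shh only and at 6.21, 22.0 and 20.8 CPM in cells with Sox9 only, where the total epithelium value rested on 2 UMIs in 13 cells. The log2 difference was 2.42 ± 0.13 and the groups did not overlap. Cells with both Shh and Sox9 held 80.7 and 85.9 CPM in the placode-enriched libraries, nearer to the Shh-only cells, and cells with neither held 9.94, 22.2 and 37.5 CPM. Fst stood at 22.2, 24.4 and 16.5 CPM with Shh only and at 40.4, 76.6 and 53.2 CPM with Sox9 only, a log2 difference of -1.61 ± 0.13, again without overlap. Cells with both genes held 27.7 and 22.6 CPM of Fst, close to the Shh-only cells, and cells with neither held 78.2, 61.3 and 69.5 CPM. Tgfb1 stood at 44.3, 55.0 and 55.2 CPM with Shh only and at 43.5, 43.1 and 45.5 CPM with Sox9 only (log2 difference 0.31 ± 0.12), and in the total epithelium library these were nearly equal. Its difference turned to -0.06 with coarser clusters and to -0.01 with clusters on unscaled values. The summed periderm markers were at 75.7, 55.6 and 61.2 CPM in the Shh-only cells and at 9.32, 26.1 and 30.7 CPM in the Sox9-only cells, and the summed fibroblast markers at 1901, 1453 and 1264 against 1767, 1082 and 1094 CPM. The basal epidermis markers, like Fst, were lower in the Shh-only cells of all 3 libraries (3517, 2853 and 2659 against 4503, 3894 and 3505 CPM). The part of these markers was not tested.

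**Figure D2:**
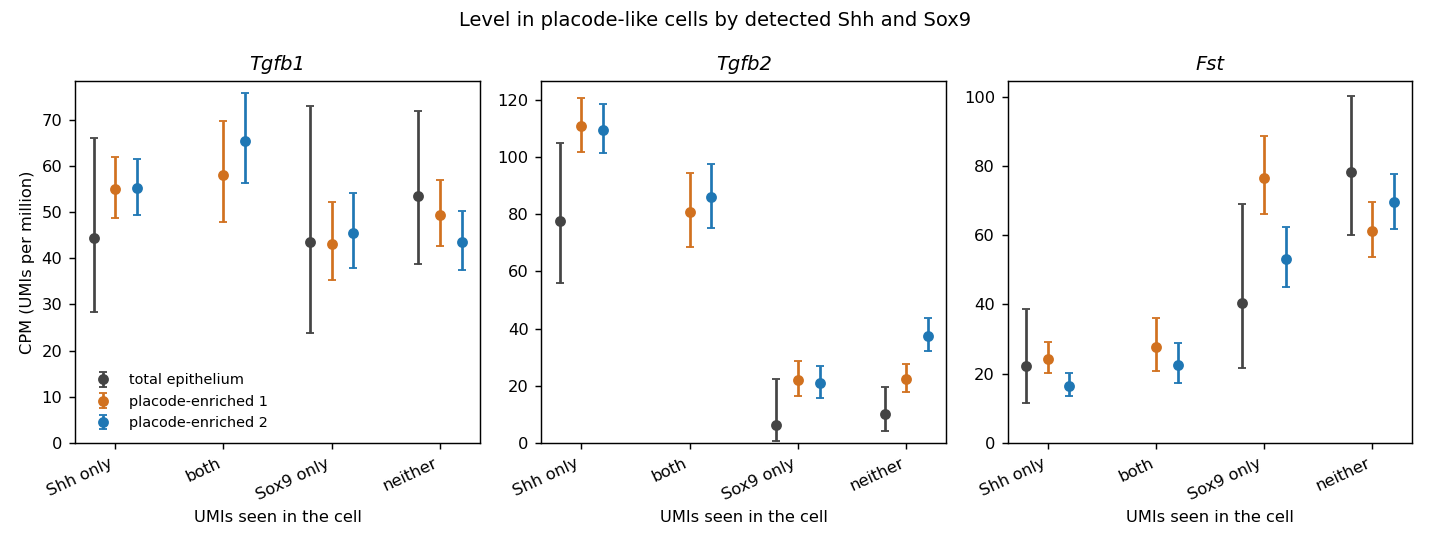
Level in CPM (y axis) of each gene in placode-like cells grouped by whether Shh and Sox9 UMIs were seen (x axis), with a point per library and bars for the 95% Poisson interval. Cells with both genes in the total epithelium library are left out because there were 2. Tgfb2 is high wherever Shh was seen and Fst is low there, with or without Sox9.

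Tgfb2 and Fst followed the number of Shh UMIs step by step in opposite directions. In placode-enriched 1, Tgfb2 was at 22.1, 56.4, 121 and 136 CPM in cells with 0, 1, 2 to 4 and 5 or more Shh UMIs (279, 111, 138 and 76 cells). In placode-enriched 2 it was at 30.9, 56.9, 102 and 167 CPM (304, 138, 162 and 91 cells). Fst fell over the same steps from 67.3 to 43.0, 18.7 and 11.1 CPM, and from 63.1 to 30.4, 13.9 and 8.38 CPM. Tgfb1 had no such order: in these libraries it was lowest with 0 Shh UMIs (46.9 and 44.3 CPM) and highest at 1 (66.0) or at 2 to 4 (61.0), while in the total epithelium library it was at 50.6 CPM with 0 and at 32.0 with 2 to 4. The total epithelium library had enough cells for 0 and for 2 to 4 Shh UMIs only, at 8.87 and 46.2 CPM of Tgfb2 and 67.4 and 21.3 CPM of Fst. By Sox9 UMIs (0, 1, 2 to 4), Tgfb2 was at 72.6, 49.1 and 52.3 CPM in placode-enriched 1 and at 78.9, 71.6 and 33.4 CPM in placode-enriched 2. With 5 or more it rested on 2 UMIs in 10 cells and 10 UMIs in 19 cells, at 8.69 (1.05 to 31.4) and 17.7 CPM (8.48 to 32.5). Fst had no steady order by Sox9 UMIs (0, 1, 2 to 4, 5 or more). It was at 40.3, 59.0, 41.1 and 104 CPM in placode-enriched 1 and at 39.1, 35.8, 40.6 and 42.5 CPM in placode-enriched 2. The genes were chosen with such values in view, so these are given as levels.

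**Figure D3:**
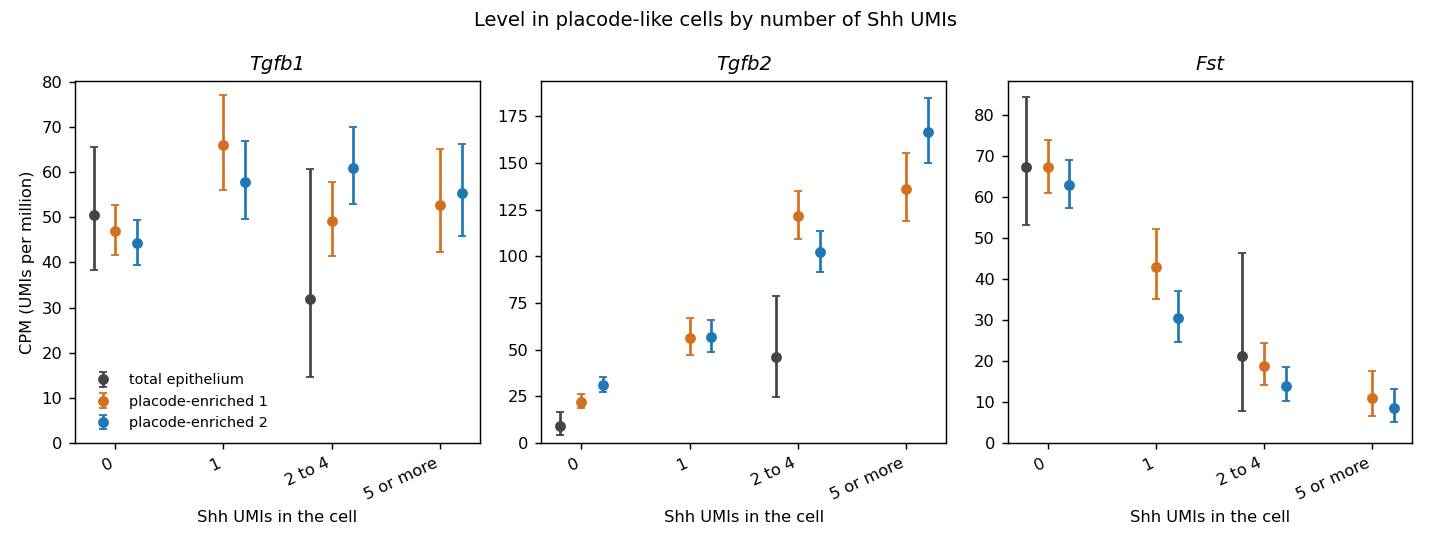
Level in CPM (y axis) of each gene in placode-like cells by the number of Shh UMIs in the cell (x axis), with a point per library and bars for the 95% Poisson interval. Only groups of 10 or more cells are drawn. Tgfb2 rises from about 22.1 and 30.9 to 136 and 167 CPM in the placode-enriched libraries while Fst falls, and Tgfb1 lies between 44.3 and 66.0 there and at 50.6 and 32.0 CPM in the total epithelium library.

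The members also differed in how often they were seen in the same placode-like cell. Fst was seen in 15.8%, 29.5% and 20% of cells with a Tgfb2 UMI and in 54.8%, 41.1% and 43.8% of cells without. Tgfb2 was seen in 23.4%, 54.2% and 56.6% of cells with a Tgfb1 UMI and in 23.5%, 48.5% and 52.0% of cells without, a small difference in each library. All 3 genes were seen together in 2, 51 and 47 cells.

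Whether the genes moved with the cell cycle was not part of their choice and was tested. Placode-like cells were ranked within each library by the share of their UMIs from 51 G2/M genes, and the third with the highest share was set against the third with the lowest (27 and 27, 201 and 202, 232 and 232 cells). Tgfb2 stood at 13.3, 54.1 and 59.4 CPM in the high cells and at 83.0, 97.7 and 107 CPM in the low cells. It was lower in the high cells of all 3 libraries, and the groups did not overlap. The log2 difference was -0.89 ± 0.10 (edgeR quasi-likelihood, adjusted p = 1.53e-08, lower in 3 of 3 libraries). Of the 3 members 1 passed, against 20.7% of the 5350 genes tested (11.6% higher and 9.14% lower). Tgfb1 (54.6, 47.9 and 44.4 against 43.8, 42.8 and 58.6 CPM; -0.10 ± 0.11, adjusted p = 0.598 in edgeR) and Fst (31.0, 42.1 and 32.5 against 71.5, 43.6 and 29.0 CPM; -0.04 ± 0.13, adjusted p = 0.887 in edgeR) did not pass, and their libraries disagreed in direction.

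The split also followed the clusters. Of the high cells, 17 and 8 of 27, 57 and 131 of 201, and 78 and 150 of 232 belonged to clusters 10 and 11, and only 1 cell in all to cluster 12. Of the low cells, 13 of 27, 153 of 202 and 196 of 232 belonged to cluster 12, 10, 45 and 34 to cluster 3, and none to cluster 11. No cluster had more than 12 cells on its smaller side in any library, so the G2/M share and the cluster cannot be told apart as what Tgfb2 moved with. In cluster 3 of placode-enriched 1, the best filled, Tgfb2 was at 35.0 CPM in 12 high cells (95% Poisson interval 14.1 to 72.0) and at 41.0 CPM in 45 low cells (27.6 to 58.5).

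Shh moved with the same split, from 122, 131 and 129 CPM in the low cells to 44.3, 70.2 and 57.9 CPM in the high cells, and median depth was 16050, 17040.5 and 18455.5 UMIs in the low and 25033, 27666 and 29264.5 UMIs in the high cells. The summed periderm markers were at 66.9, 45.7 and 71.8 CPM in the low and at 26.6, 35.9 and 31.1 CPM in the high cells, and the fibroblast markers at 1674, 1549 and 1318 against 1569, 1134 and 1029 CPM. The part of depth and of these markers was not tested. When the placode-like cells were restricted to those with a Shh UMI, Tgfb2 was still lower in the high cells, by a log2 difference of -0.55 ± 0.10 (edgeR adjusted p = 2.05e-05). With cells thinned to 5000 UMIs it was -0.53 ± 0.15 (edgeR adjusted p = 0.0182). The result depended on the phase: when cells were ranked by S phase genes instead, Tgfb2 was at -0.10 ± 0.13 (edgeR adjusted p = 0.661) and Tgfb1 was higher in the high cells, at 0.77 ± 0.10 (edgeR adjusted p = 5.80e-06). The cut was a position in a continuous range, with 5, 61 and 53 cells within 10% of the upper limit (0.722%, 1.04% and 0.997% of UMIs). Without the library as a block, the Tgfb2 difference was -0.99 ± 0.28 and missed the threshold (edgeR adjusted p = 0.0648).

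Madcam1 encodes the protein used for the sort, and its transcript was likewise not part of the choice. Tgfb2 was at 64.0, 75.3 and 75.6 CPM in placode-like cells with a Madcam1 UMI (25, 368 and 422 cells) and at 15.8, 45.8 and 59.6 CPM in those without (56, 236 and 273 cells). Fst was at 36.8, 35.8 and 32.7 CPM with and at 58.3, 61.2 and 49.0 CPM without. Neither gene's groups overlapped. The log2 differences were 0.55 ± 0.09 for Tgfb2 (edgeR quasi-likelihood, adjusted p = 8.52e-05, higher in 3 of 3 libraries) and -0.68 ± 0.09 for Fst (edgeR adjusted p = 9.61e-07, lower in 3 of 3). Tgfb1 was at 52.3, 53.6 and 53.0 against 45.8, 48.3 and 50.4 CPM, at 0.11 ± 0.08 (edgeR adjusted p = 0.735), and did not pass. Of the 3 members 2 passed, against 2.94% of the 5646 genes tested (1.42% higher and 1.52% lower). In placode-enriched 1 and 2, 125 of 368 and 163 of 422 cells with a Madcam1 UMI belonged to cluster 12. Of those without, 59 of 236 and 89 of 273 did. In clusters 3 and 11 of these libraries Tgfb2 was higher and Fst lower with a Madcam1 UMI. Inside cluster 12 Tgfb2 was at 130 and 119 against 116 and 114 CPM, and Fst at 18.0 and 9.91 against 16.6 and 23.7. Inside cluster 10 Tgfb2 was at 28.4 and 25.8 against 10.5 and 26.8 CPM, and Fst at 59.2 and 55.1 against 63.1 and 37.6.

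Shh was at 105, 95.9 and 89.5 CPM in the cells with a Madcam1 UMI and at 40.0, 57.7 and 62.7 CPM in those without. The summed periderm markers were at 58.1, 43.5 and 51.3 CPM with and at 28.3, 35.7 and 33.8 CPM without. The basal epidermis markers, like Fst, were lower with a Madcam1 UMI in all 3 libraries (3903, 3205 and 2895 against 4290, 3419 and 3108 CPM). The part of these markers and of the cluster mix was not tested. Among the cells with a Shh UMI the Tgfb2 difference was 0.06 ± 0.12 (edgeR adjusted p = 0.9998), while that of Fst kept its size at -0.68 ± 0.19 without passing (edgeR adjusted p = 0.333), in a fit that called 3 genes. The Tgfb2 call was also lost by DESeq2 (0.81 ± 0.23, adjusted p = 0.0824) and with cells thinned to 5000 UMIs (0.35 ± 0.15, edgeR adjusted p = 0.676), whereas Fst passed in both. Without placode-enriched 1, neither passed: Tgfb2 was at 0.53 ± 0.15 (edgeR adjusted p = 0.182) and Fst at -0.59 ± 0.15 (edgeR adjusted p = 0.0778). Without the library as a block, Tgfb2 was at 0.72 ± 0.29 and Fst at -0.69 ± 0.13, and neither passed in edgeR (adjusted p = 0.9997 and 0.633).

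**Figure D4:**
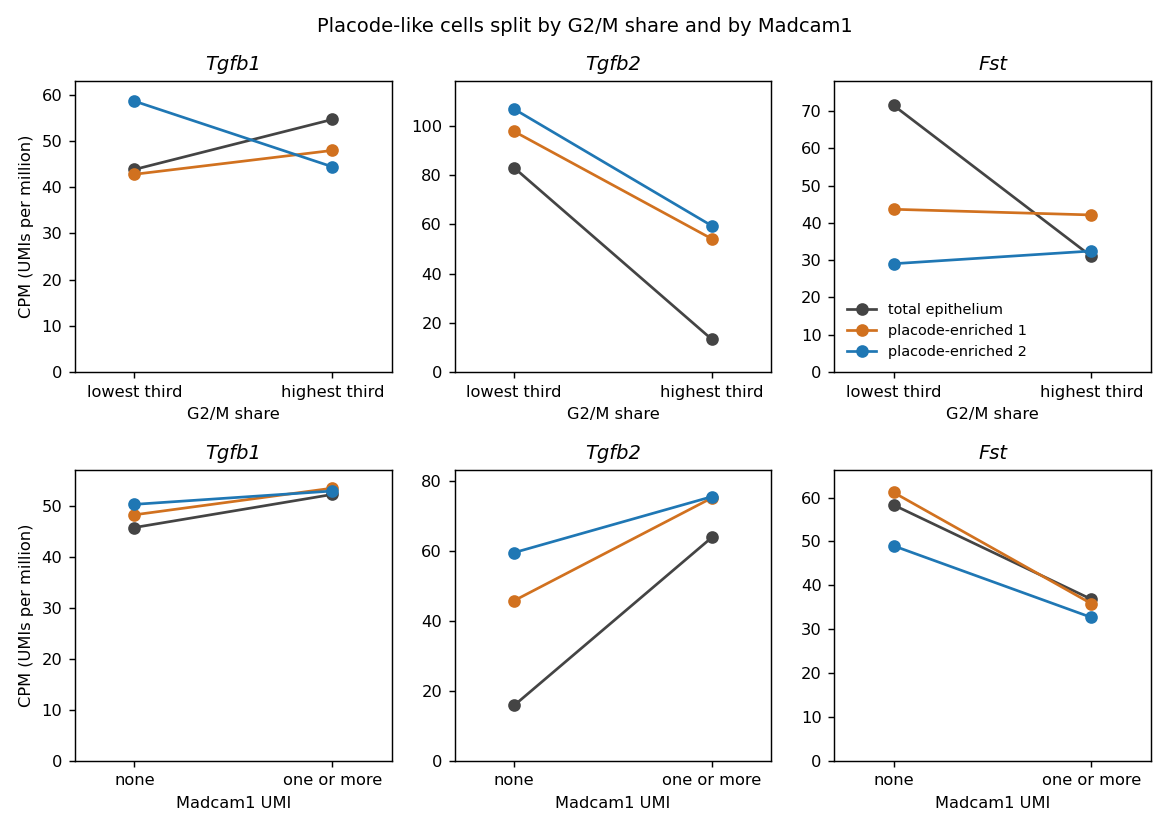
Level in CPM (y axis) of each gene in placode-like cells, with a point per library and lines joining the groups of a library. The upper row sets cells with the lowest G2/M share of UMIs against those with the highest, and the lower row cells without against cells with a Madcam1 UMI. Tgfb2 falls from 83.0, 97.7 and 107 to 13.3, 54.1 and 59.4 CPM in the upper row, and in the lower row Tgfb2 rises and Fst falls in every library.

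Around the members, the other genes of the TGF-beta and activin pathway moved in both directions between placode-like and basal epidermis-like cells. Of 58 listed genes 44 could be tested, of which 18 were higher and 8 lower (edgeR adjusted p under 0.05). Among all 6103 genes tested 37.5% were called, 19.3% higher and 18.2% lower, and the median log2 difference was 0.20 over the list and 0.00 over all genes. Among the ligands, Tgfb3 rose with Tgfb1 and Tgfb2, at 1.51 ± 0.20 (7.65 ± 1.11 CPM in placode-like and 8.21 ± 2.54 in unnamed cells). The activin subunit gene Inhba, at 1.31 ± 0.52 and 1.01 CPM, did not pass (edgeR adjusted p = 0.0737).

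Of 9 genes for latency and activation, 3 rose and 1 fell. Itgb8, a subunit of an integrin that activates latent TGF-beta, rose by 2.61 ± 0.23, and Ltbp1, a latent TGF-beta binding protein, by 1.20 ± 0.17. Ltbp4, of the same family as Ltbp1, fell by 0.72 on the log2 scale. In the unnamed clusters Itgb8 and Ltbp1 were higher than in placode-like cells (9.89 and 13.4 against 5.79 and 7.02 CPM). Ltbp4 was at 21.8 against 20.5 CPM. Of 6 receptors 1 rose and 1 fell: the activin type II receptor gene Acvr2b was at 0.55 ± 0.09, and the TGF-beta type II receptor gene Tgfbr2 fell by 1.01, from 5.04 to 2.65 CPM. Tgfbr1 (0.01 ± 0.10) and Acvr2a (0.17 ± 0.11) did not pass. Among 4 antagonists other than Fst, the follistatin-like genes Fstl3 and Fstl1 fell, by 1.20 and 0.43, and Dcn, encoding the TGF-beta binding proteoglycan decorin, rose by 0.99 ± 0.06.

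Of 12 Smads and regulators 6 rose and 1 fell. The inhibitory Smad7 rose by 1.28 ± 0.18, the corepressor gene Tgif1 by 1.17 ± 0.06, Skil, a Smad corepressor, by 0.64 ± 0.14 and Smad3 by 0.62 ± 0.11. In the unnamed clusters these 4 genes stood at 10.0, 86.9, 7.32 and 18.3 CPM, against 12.8, 113, 9.95 and 17.9 CPM in placode-like cells. Of 10 genes known as TGF-beta targets 6 rose and 3 fell. Fn1, encoding fibronectin, rose by 3.16 ± 0.16, from 8.98 to 77.9 CPM, and Ctgf, a matricellular protein gene, by 2.42 ± 0.18, whereas Cyr61, of the same family as Ctgf, fell by 3.69, from 5.60 to 0.427 CPM. In the unnamed clusters Fn1 was at 49.2, Ctgf at 19.5 (22.9 in placode-like cells) and Cyr61 at 2.59 CPM. Many of these targets answer to other signals too. Dcn is also a fibroblast marker: the 6 of 8 listed fibroblast markers that were measured added up to 1797, 1382 and 1188 CPM in the placode-like class, against 832, 796 and 677 CPM in the basal one. Nearly all of it was Dcn and Postn, while Col1a1 was at 0, 0.153 and 0 CPM in placode-like cells. The part of these markers in the differences was not tested.

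**Figure D5:**
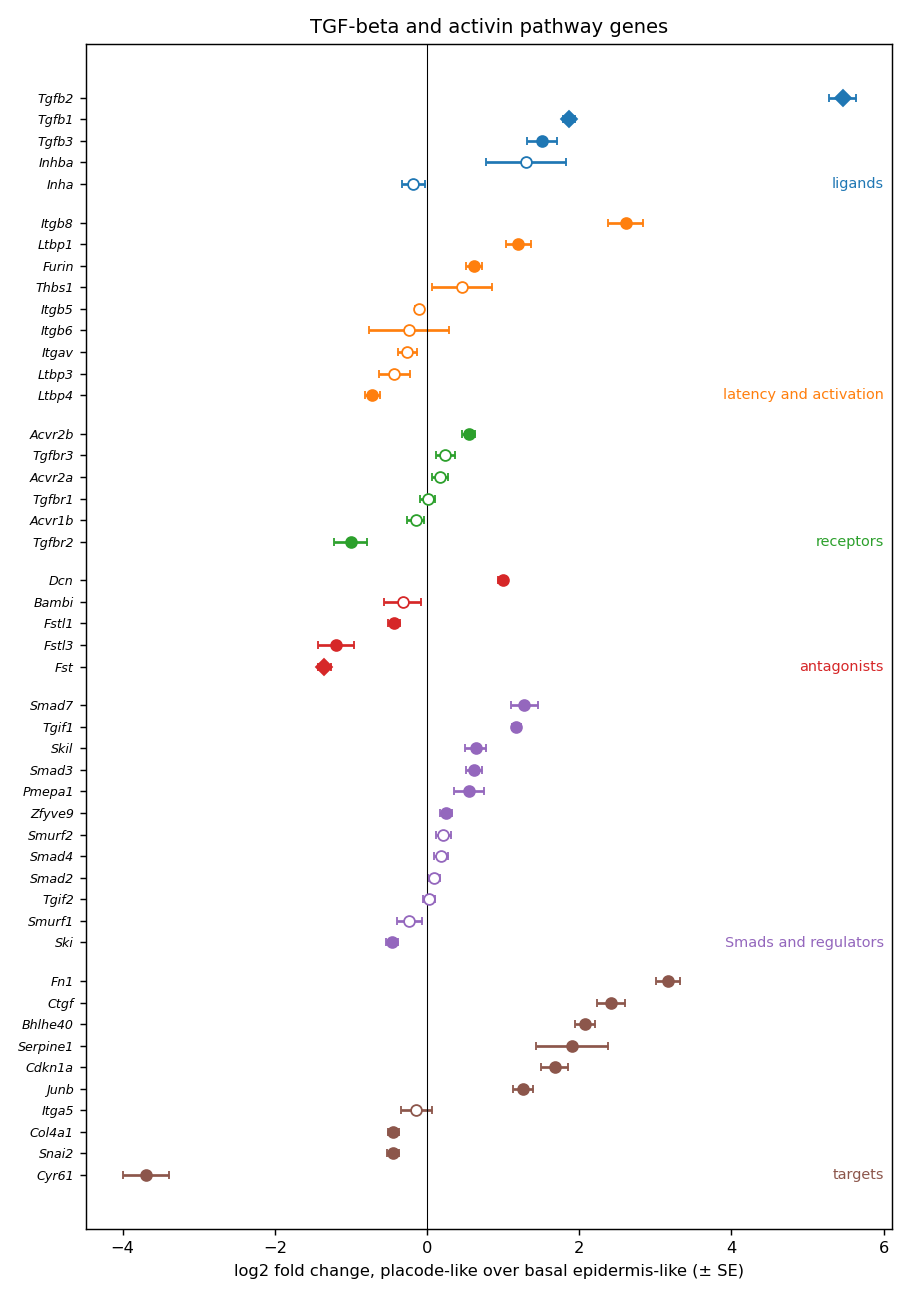
Log2 fold change between placode-like and basal epidermis-like cells (x axis; positive is higher in placode-like) with its SE for each pathway gene tested (y axis), grouped and coloured by role. Filled circles passed the test, open circles did not, and diamonds are the 3 members, drawn with no test. Tgfb2 at 5.46, Fn1 at 3.16 and Cyr61 at -3.69 lie farthest out.

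Between Shh-only and Sox9-only placode-like cells 6 of 36 tested pathway genes were higher and 3 lower, against 9.61% of 5058 genes called in either direction (4.27% higher and 5.34% lower). Fn1 was higher by 1.14 ± 0.10 and Smad7 by 1.05 ± 0.23, as were Cdkn1a, which encodes a cell cycle inhibitor, by 1.15 ± 0.32 and Junb by 0.77 ± 0.20. Tgif1 was at 0.34 ± 0.08 and Dcn at 0.29 ± 0.05. Of the 8 targets tested, 3 were higher (Fn1, Cdkn1a and Junb) and 2 lower (Snai2 and Col4a1). The median log2 difference was 0.015 over these targets and 0.0096 over all genes. Tgfbr3, the co-receptor betaglycan, which presents TGF-beta2 to the type II receptor, was lower by -0.81 ± 0.24. Tgfbr1 (0.37 ± 0.23), Acvr2a (-0.35 ± 0.20), Acvr2b (0.42 ± 0.15) and Smad3 (-0.12 ± 0.17) did not pass.

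In the G2/M split 4 of 39 tested pathway genes were higher and 5 lower, a share near the 20.7% of all genes called in that split. The lower ones were the inhibin subunit gene Inha (-1.56 ± 0.31), Thbs1 (-1.48 ± 0.47), Cdkn1a (-1.23 ± 0.26), Junb (-0.79 ± 0.16) and Dcn (-0.26 ± 0.06). The higher ones were Ctgf (0.58 ± 0.17), Ltbp4 (0.56 ± 0.17), Smad4 (0.33 ± 0.12) and Snai2. Among the targets 2 were higher and 2 lower. Smad7 (0.14 ± 0.17) and Tgfb3 (-0.58 ± 0.23) did not pass. In the Madcam1 split Fn1, at 0.43 ± 0.07 (edgeR adjusted p = 5.56e-05), was the only call among 41 tested pathway genes, where 2.94% of all genes were called, which is a share near the list's own.

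Across 13 sums of at least 20 cells (library by class), the genes most like each member in log2(CPM + 1) were found among 4725 genes. The sums share libraries and classes, so the correlations are descriptions. Tgfb1 was closest to Sema3d (r = 0.965), a semaphorin gene, then Ift22 (0.960), C2cd3 (0.948), Heg1 (0.945) and Cnpy4 (0.944). Tgfb2 was closest to Shh (0.937), Sh3gl3 (0.935), Usp3 (0.934), Btg1 (0.917) and Trps1 (0.915), a transcription factor gene known from hair disorders. Among the genes closest to Fst were Gria2 (0.956), Nbl1 (0.933), a secreted BMP antagonist gene, the basal keratin gene Krt14 (0.923) and Nckap5 (0.912). Between the members r was 0.625 for Tgfb1 and Tgfb2, 0.258 for Tgfb1 and Fst and -0.083 for Tgfb2 and Fst.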

How the data were processed

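Single-cell libraries were analysed from the deposited whole UMI counts per gene and cell, which the authors made with Cell Ranger, Seurat and build mm10, per the submitters' processing notes. For versions, annotation, strand setting and cell filters the sources used here give nothing. Placode-enriched cells were assigned to library 1 or 2 by the suffix of the barcode. The tables held 14959 and 15900 genes, and the analysis kept the 14656 shared ones, dropping 0.00685% and 0.0142% of UMIs.

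The 3 genes, the lists and the class thresholds were chosen with earlier results of these data known. Doublets were called with scrublet (scanpy 1.11.5, expected rate 0.05), which removed 18, 6 and 2 cells, so doublets can remain. Cells were clustered (Leiden, igraph 0.11.9, resolution 1, 20 neighbours, 30 components of 1000 variable genes chosen within each library, scaled) on 7275 genes set by a hash of the symbol, leaving 7381 open to test, members and lists included. Choosing variable genes within each library followed a clustering that had split by library. A placode-like cluster needed 6 of 9 markers at 25% of the highest cluster, a basal epidermis-like one 7 of 7 at 50%, a suprabasal-like one 4 of 8 at 25% and a melanoblast-like one 5 of the 5 measured at 50%.

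UMIs were summed per library and group into 6 sums and fitted with edgeR 4.0.16 (R 4.3.3; quasi-likelihood, TMM, filterByExpr, library as a block, since both groups came from each library's own embryos), with Benjamini-Hochberg adjusted p under 0.05 over all genes tested. All 3 members passed the filter in each fit. P-values rest on how the difference within a library varied over 3 libraries, 1 of them of another sort. That variation was estimated with the help of all genes tested. On simulated counts with 200 changed genes, fits as between the classes called 85.1% of those changed 2-fold. The G2/M and Madcam1 fits called 74.6% each and the Shh and Sox9 fit 70.1%. Of those changed 1.5-fold they called 23.9% (classes), 20.9% (G2/M), 22.4% (Madcam1) and 5.97% (Shh and Sox9). False calls were 2.99% to 6.80% of all calls. The simulated libraries had the same set spread and differed only in depth, and only well-counted genes were changed, so real rates can be lower. Named were the 3 members, 4 reference genes (Shh, Sox9, Madcam1, Edar), the 5 most like each member and, per role of the pathway list, up to 3 called genes with the largest change plus 8 set genes. A few further names (such as Gm29491, Atf3 and Postn) were added after their values were seen, and 1 item that the rule selects is not reported here. Alternatives were DESeq2 1.42.0, RLE factors, no low-count filter, no block, other resolutions, thinned cells, no doublet removal, and leaving out each library.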

Additional observations from a re-analysis of the deposited data

How the results depend on the processing

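Clustering on unscaled values, and using only cells with a Shh UMI, were alternatives chosen after seeing the data. The cause of the shifts was not tested. RLE size factors and leaving out the low-count filter changed no call or direction of the 3 genes. Between placode-like and basal epidermis-like cells 2290 genes were called, 1128 with no replicate block, 1262 by DESeq2, 1198 with thinned cells and 1221 to 2636 without 1 library. Between Shh-only and Sox9-only cells 486 were called, 1152 with unscaled clusters, 80 with no replicate block, 152 by DESeq2, 1328 with no doublet removal, 977 and 739 at resolutions 0.5 and 2, 50 with thinned cells and 201 to 469 without 1 library. The G2/M split called 1109, against 1841 unscaled, 279 with no replicate block, 267 by DESeq2, 1717 at resolution 0.5, 408 thinned and 378 to 1337 without 1 library (525 without placode-enriched 1, 378 without placode-enriched 2). The Madcam1 split called 166, against 393 unscaled, 439 with no doublet removal, 283 at resolution 0.5, 20 thinned, 3 among Shh cells and 12 to 264 without 1 library (12 without placode-enriched 1, 39 without placode-enriched 2). With no replicate block edgeR called 0 in the Madcam1 split, with 159 genes at an unadjusted p under 0.05, and DESeq2, with the block, called 24.

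Between the classes, log2 differences moved for Tgfb1 to 2.19 (resolution 0.5), 1.47 (thinned) and 0.60 (unnamed cells as basal), for Tgfb2 to 2.89 (unnamed as basal) and for Fst to -1.75, -1.60 and -0.89 in the same order as for Tgfb1. Without 1 library they were 1.83 to 1.92, 5.17 to 5.96 and -1.49 to -1.20. Between Shh-only and Sox9-only cells Tgfb1 turned to -0.0096 (unscaled) and -0.063 (resolution 0.5) and stood at 0.13 with no doublet removal and at resolution 2, and at 0.56 thinned. Fst was -2.40 thinned, and Tgfb2 was 2.03 thinned and 2.38 to 2.49 without 1 library. Thinned, the mean difference in the share of cells with Tgfb1 between cells with and without Shh turned from 0.263 to -3.54 percentage points. The negative sign came from total epithelium, where 0% of 16 Shh cells and 16.9% of 65 others held Tgfb1. In placode-enriched 1 and 2 the thinned shares were 24.6% and 22.2% with Shh and 20.4% and 20.1% without. For Fst the mean difference went from -26.4 to -13.4 points, with shares that were lower in both groups once thinned.

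In the G2/M split Tgfb2 lost its call with no replicate block (-0.99) and with S phase genes (-0.10), and was -1.08 to -0.83 without 1 library. Tgfb1 turned to 0.023 with cells split at the median, 0.082 thinned, 0.25 among Shh cells and 0.77 with S phase genes, was called at -0.37 at resolution 0.5, and ranged from -0.27 to 0.19 without 1 library. Fst turned to 0.25 (resolution 0.5), 0.31 (S phase genes), 0.11 (thinned) and 0.40 (Shh cells), was called at -0.42 unscaled and -0.31 at resolution 2, and ranged from -0.28 to 0.069 without 1 library. In the Madcam1 split Tgfb2 lost its call with no replicate block (0.72), by DESeq2 (0.81), thinned (0.35) and among Shh cells (0.062), and was 0.50 to 0.89 without 1 library. Fst lost it with no replicate block (-0.69) and among Shh cells (-0.68), and was -0.76 to -0.59 without 1 library, losing it without placode-enriched 1, as Tgfb2 did. Tgfb1 turned to -0.057 (resolution 0.5) and -0.087 (thinned).

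The total epithelium library limits the depth: it had 81 placode-like cells, 15 of them with a Sox9 UMI. The unnamed clusters held 31.0% to 35.3% of cells in the placode-enriched libraries, and which class they belong to sets the size of the Tgfb1 difference.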

Other observations

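Cluster 7, an unnamed cluster of 72 cells with Oasl2, Cldn3 and Zfp750 among its leading genes, held Tgfb2 without the high Tgfb1 of the other unnamed clusters. Pooled over the libraries Tgfb2 was at 58.1 CPM there (95% Poisson interval 46.1 to 72.2), against 15.0 CPM in cluster 4 and 13.1 CPM in cluster 9. Tgfb1 was at 15.8 CPM in cluster 7 and at 63.9 and 55.3 CPM in clusters 4 and 9. Of the 72 cells 5 came from the total epithelium library. The Tgfb2 level there differed between the placode-enriched libraries, at 93.1 and 42.1 CPM, and so did that of Fst, at 36.0 and 78.3 CPM. These values belong to no test.

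In placode-enriched 2, a single placode-like cell with neither Shh nor Sox9 held 49 of the 612 Fst UMIs of its class. The highest count of Fst in a placode-like cell was 10 in the total epithelium library and 19 in placode-enriched 1.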
